A study of Mus musculus with 19 samples.

Results

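Solute carriers are the membrane proteins that move sugars, amino acids, monocarboxylates, organic ions and metabolites into and out of liver cells and their mitochondria. Members of 7 carrier families were taken from the protein-coding genes of the RefSeq mouse table by symbol (Slc2a, Slc7a, Slc16a, Slc22a, Slc25a, Slc38a and Slco), which gave 139 of 21887 genes. CpG sites of the authors' comparisons were counted for a member when they lay inside it or within 2 kb of either end. Of the 139 members 25 had at least 1 listed site and 114 had none. Slc7a6os entered through its symbol alone, being a gene on the strand opposite a carrier gene, and had no listed site.

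DNA methylation was measured in whole liver by reduced-representation bisulfite sequencing, a method that converts unmethylated cytosines and sequences only CpG-rich restriction fragments, cut here with MspI and TaqαI. The groups were 5 Mat1a knockout (KO) mice given S-adenosylmethionine (SAMe), 6 Mat1a KO mice given placebo and 8 untreated wild-type (WT) mice, all aged 10 months, with treatment over 8 weeks per the series title. Both KO groups lack Mat1a, the liver methionine adenosyltransferase that makes SAMe, and the WT mice had neither placebo nor SAMe, which ties genotype to procedure in each comparison with WT. The authors' deposited tables hold 1 CpG per line with a difference in percentage points, a p-value and a q-value. They give no level, coverage or value per animal, so depth is unknown, no value carries an SD, and no test over animals could be run. Every listed site differs by more than 20 percentage points, and a site that is missing was either below the authors' thresholds or not covered. Differences were read as KO minus WT and as SAMe minus placebo, which the tables do not state. Under the reverse order all directions below would flip at once. Whole liver holds several cell types, and a change in cell makeup cannot be told apart from a change within hepatocytes.

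The Slc2a family carries glucose, fructose and urate down their gradients, and Slc2a2 is the main glucose carrier of hepatocytes. Slc7a and Slc38a proteins exchange or take up amino acids, Slc16a proteins carry lactate, pyruvate and other monocarboxylates, and Slc22a and Slco proteins take up organic ions, drugs and bile constituents. Most Slc25a proteins sit in the inner mitochondrial membrane, where they pass substrates between cytosol and matrix. Among them Slc25a26 imports SAMe itself.

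Methylation at the members was lower in KO liver at every listed site, in both comparisons with WT. In SAMe-treated KO against WT the authors' deposited table listed 31 sites in 17 members, 31 lower and 0 higher. In placebo-treated KO against WT the authors' deposited table listed 42 sites in 23 members, 42 lower and 0 higher. The member share was 12.2% in SAMe-treated KO against WT, beside 10.8% of all coding genes, and 16.5% in placebo-treated KO against WT, beside 12.5% of all coding genes. Lower sites alone were listed in 10.7% of all coding genes in SAMe-treated KO and 12.5% in placebo-treated KO against WT. Higher sites occurred in 0 members, beside 0.0914% of all coding genes in SAMe-treated KO and 0.0777% in placebo-treated KO against WT. These shares were near the background. Between the KO groups 0 of 139 members had a listed site in the authors' deposited table, beside 0.658% of all coding genes, and that low share leaves nothing to read from the 0.

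The listed sites of all genes ran in the same direction, so the common sign is no property of the carriers. Sites were lower at 5330 of 5383 in SAMe-treated KO against WT and at 6678 of 6721 in placebo-treated KO against WT. The median over member sites was −29.3 percentage points in SAMe-treated KO against WT (quartiles −37.5 and −27.4), where all listed sites had −26.6 (quartiles −33.0 and −22.7), computed from the authors' deposited table. In placebo-treated KO against WT the median over member sites was −26.8 (quartiles −36.0 and −24.0) and that over all listed sites −25.9 (quartiles −31.8 and −22.3), again from the authors' deposited table. Of the member sites 3 of 31 (9.68%) lay under 25 percentage points in SAMe-treated KO against WT, where 39.7% of all listed sites did. In placebo-treated KO against WT it was 17 of 42 (40.5%), where 44.5% of all listed sites did. Neighbouring sites of 1 gene can share fragments and are not independent, so these shares are a description.

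**Figure D1:**
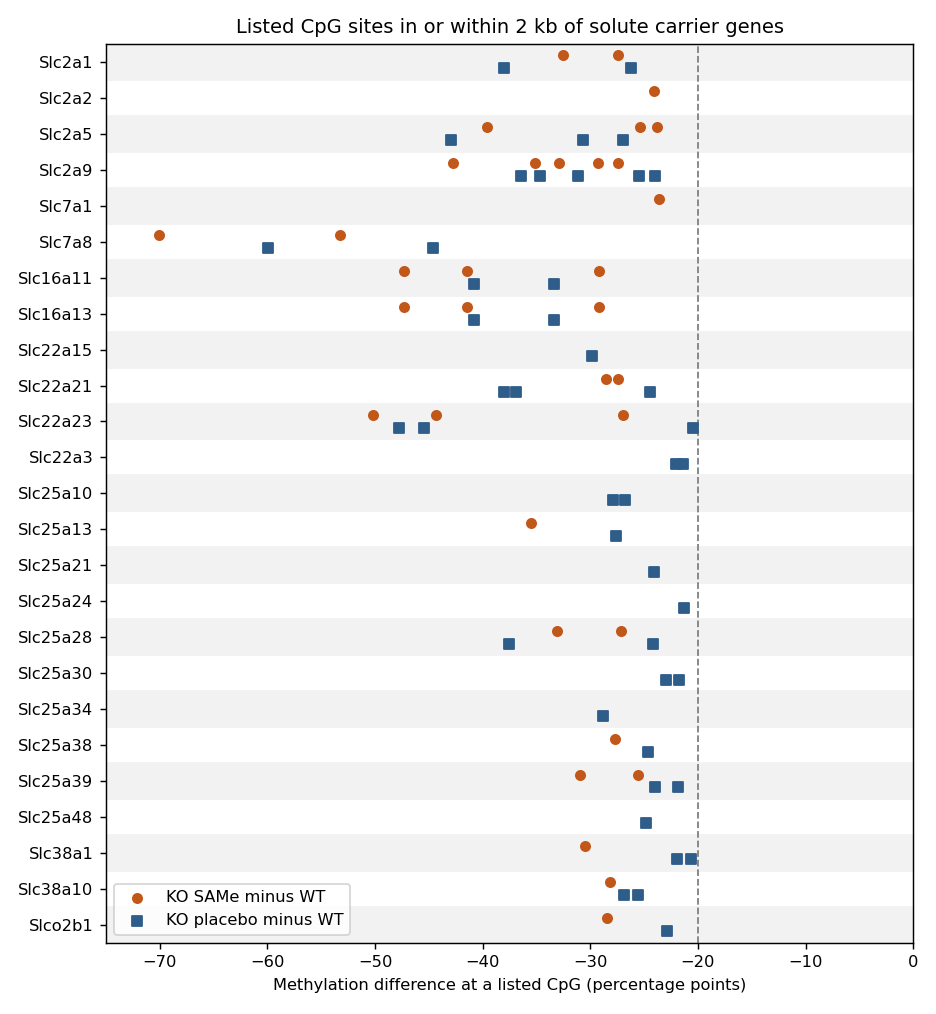
Methylation difference in percentage points (x axis) at each listed CpG of the 25 carrier genes with a site (y axis), as deposited by the authors; orange circles are SAMe-treated KO minus WT, blue squares placebo-treated KO minus WT, and the dashed line marks the authors' limit of 20. All values are below 0, Slc7a8 reaches −70.1 in SAMe-treated KO and −59.9 in placebo-treated KO, and most mitochondrial (Slc25a) carriers sit between −20 and −30.

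Sequence is shown for the places where a listed site came closest to a start in the promoter table. Promoter methylation is the kind most often read against expression. Bases are from the RefSeq promoter table (GRCm38.p6), 5′ to 3′ on the gene's strand, and end where the gene's listed extent begins. Capitals mark each CpG. The listed sites themselves lie outside these stretches, 1275 bases after the start in Slc2a1, 612 and 619 after it in Slc2a5, and in Slc25a34 446 bases beyond the gene's listed end, on its upstream side, or 503 before the start in the promoter table, which lies inside the gene.
Slc2a1, chr4:119108495-119108744, plus strand: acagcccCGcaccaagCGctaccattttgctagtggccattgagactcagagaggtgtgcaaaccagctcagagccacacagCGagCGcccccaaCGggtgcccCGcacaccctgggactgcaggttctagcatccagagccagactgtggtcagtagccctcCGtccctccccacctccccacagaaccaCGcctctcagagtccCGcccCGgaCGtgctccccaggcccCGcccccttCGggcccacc
Slc2a5, chr4:150119094-150119343, plus strand: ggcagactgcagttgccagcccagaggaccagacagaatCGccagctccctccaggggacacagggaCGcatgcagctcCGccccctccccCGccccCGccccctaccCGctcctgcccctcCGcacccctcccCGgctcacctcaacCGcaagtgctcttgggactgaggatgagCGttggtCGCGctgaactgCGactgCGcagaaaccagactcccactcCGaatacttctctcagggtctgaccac
Slc25a34, chr4:141623892-141624084, minus strand: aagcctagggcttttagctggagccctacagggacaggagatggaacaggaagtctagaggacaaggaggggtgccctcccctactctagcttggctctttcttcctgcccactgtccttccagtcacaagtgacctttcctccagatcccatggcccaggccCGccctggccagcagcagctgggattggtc

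The 3 stretches differ in CpG content. The 250 bases before the start held 13 CpG in Slc2a1 and 15 in Slc2a5, each with 1 MspI site (CCGG), and 1 CpG with no MspI site in Slc25a34. None held a TaqαI site (TCGA). Over all coding genes in the table, 60.5% of such windows had as many CpG as Slc2a1 or fewer, 65.9% as many as Slc2a5 or fewer, and 15.1% as many as Slc25a34 or fewer. CCGG occurred in 54.9% of the 133 windows of 108 members and in 55.7% of all coding windows, and TCGA in 16.5% of the member windows and 20.3% of all coding windows. Both motifs read the same on either strand.

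A listed member site fell inside a sequence of the table at 1 place, within Slco2b1, where the window belongs to the long non-coding RNA gene Gm34280 on the plus strand. The stretch is shown because it holds the differing CpG itself, in capitals, on the minus strand where it was read.
Slco2b1 site, chr7:99691052-99691153, minus strand: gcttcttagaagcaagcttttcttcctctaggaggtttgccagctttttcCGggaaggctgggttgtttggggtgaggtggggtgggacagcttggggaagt
The CpG at chromosome 7 position 99691103 is the only one in these 102 bases and is part of the only CCGG, the sequence at which MspI cuts. Slco2b1, an organic anion uptake carrier, had a difference there of −28.4 in SAMe-treated KO and −22.9 in placebo-treated KO against WT in the authors' deposited table. The site lay 4706 bases after the nearest listed start of Slco2b1. Slco2b1 was the only member of 14 in the Slco family with a listed site (7.14% in each comparison with WT). Over all coding genes the share was 10.8% in SAMe-treated KO and 12.5% in placebo-treated KO against WT. The hepatocyte uptake carrier Slco1b2 and the related Slco1a1 had none.

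The glucose family had a listed site in 4 of 12 members (33.3%, beside 10.8% of all coding genes) in SAMe-treated KO against WT and in 3 of 12 (25%, beside 12.5%) in placebo-treated KO against WT, in the authors' deposited tables. With 12 members, 1 gene moves these shares by several points. Slc2a9, a urate carrier that brings urate into hepatocytes, held 5 sites in 2 groups inside the gene on chromosome 5. The group at 38502059, 38502093 and 38502100 had −35.1, −42.8 and −29.3 in SAMe-treated KO and −34.7, −36.5 and −24.0 in placebo-treated KO against WT in the authors' deposited table. The other pair, at 38488016 and 38488026, had −32.9 and −27.4 in SAMe-treated KO and −31.1 and −25.5 in placebo-treated KO against WT by the authors' deposited table. All 5 positions were thus lower against WT in both KO groups. The only start of Slc2a9 in the promoter table lies inside the gene, and these sites stand at −18715 to −4631 bases from it, on its upstream side. The gene's listed extent reaches upstream to position 38503147. The group of 3 sites is thus close to that end of the gene, though far from the start in the promoter table.

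Slc2a5, the fructose carrier, had its lowest value at chromosome 4 position 150128480, −39.6 in SAMe-treated KO and −42.9 in placebo-treated KO against WT in the authors' deposited table. The pair just after its start, 150119956 and 150119963, had −25.4 and −23.8 in SAMe-treated KO and −30.7 and −27.0 in placebo-treated KO against WT in the authors' deposited table. Slc2a1, the widely expressed glucose carrier that hepatocytes normally hold at low level, had a site inside the gene (position 119110020) at −32.6 in SAMe-treated KO and −38.1 in placebo-treated KO against WT in the authors' deposited table. A further site 748 bases beyond its end, 119138078, had −27.5 in SAMe-treated KO and −26.2 in placebo-treated KO against WT in the authors' deposited table. Slc2a2 had 1 listed site, at chromosome 3 position 28701732, in SAMe-treated KO against WT alone (−24.1, q = 0.000216, the authors' deposited table). That q-value is the largest of any member site in that comparison, and the difference is near the limit of 20. The muscle and fat carrier Slc2a4, Slc2a3, Slc2a6, Slc2a7, Slc2a8, Slc2a10, Slc2a12 and Slc2a13 had no listed site.

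Among amino acid carriers the lowest values of all members were in Slc7a8, which encodes the light chain LAT2 of a neutral amino acid exchanger. At chromosome 14 position 54748391 its difference was −70.1 in SAMe-treated KO and −59.9 in placebo-treated KO against WT in the authors' deposited table. The neighbouring CpG at 54748431 had −53.3 in SAMe-treated KO and −44.6 in placebo-treated KO against WT in the authors' deposited table. Both sites lie inside the gene, about 33 kb after its start (33495 and 33455 bases). Mat1a is on the same chromosome, 13.6 Mb away, and whether linked DNA of the KO allele moves with these values was not tested. Without the chromosome 14 members the lowest member values were −50.2 in SAMe-treated KO and −47.8 in placebo-treated KO against WT, and the medians −29.2 in SAMe-treated KO and −26.8 in placebo-treated KO, computed from the authors' deposited tables. Slc7a1, an arginine and lysine carrier, had 1 site at chromosome 5 position 148348772 in SAMe-treated KO against WT alone, at −23.6 in the authors' deposited table. The Slc7a family thus had a listed site in 2 of 16 members (12.5%, beside 10.8% of all coding genes) in SAMe-treated KO against WT. In placebo-treated KO against WT it was 1 of 16 (6.25%, beside 12.5%). The cystine carrier Slc7a11, the large neutral amino acid carrier Slc7a5 and the liver arginine carrier Slc7a2 had no listed site.

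In the Slc38a family, Slc38a1 and Slc38a10 had listed sites among 11 members (18.2% in each comparison with WT). Over all coding genes the share was 10.8% in SAMe-treated KO and 12.5% in placebo-treated KO against WT. Slc38a1, a sodium-coupled carrier of glutamine, had −30.5 in SAMe-treated KO and −21.9 in placebo-treated KO against WT at chromosome 15 position 96593123 in the authors' deposited table. Its second site, 96593184, was listed in placebo-treated KO against WT alone, at −20.7 in the authors' deposited table. Slc38a10 had −28.2 in SAMe-treated KO and −25.6 in placebo-treated KO against WT at chromosome 11 position 120140460 in the authors' deposited table. It also had −26.9 at 120122304, in placebo-treated KO against WT alone, in the authors' deposited table. The hepatocyte carriers Slc38a2, Slc38a3 and Slc38a4 had no listed site.

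The monocarboxylate family had its sites at 1 place, shared by the neighbouring genes Slc16a11 and Slc16a13 on chromosome 11. Slc16a11 encodes a liver carrier whose human gene is linked to diabetes risk, and Slc16a13 a lactate carrier. The positions lie inside Slc16a11, 1638 to 1680 bases after its start, and 1199 to 1241 bases from the end of Slc16a13 that faces it. At 70215548 the difference was −41.4 in SAMe-treated KO and −33.4 in placebo-treated KO against WT in the authors' deposited table. At 70215587 it was −47.3 in SAMe-treated KO and −40.8 in placebo-treated KO against WT in the authors' deposited table. The CpG 3 bases on, 70215590, was listed in SAMe-treated KO against WT alone, at −29.2 in the authors' deposited table. The sites thus count for 2 members but are 1 group of neighbouring cytosines. These 2 of 14 members make 14.3% in each comparison with WT. Over all coding genes the share was 10.8% in SAMe-treated KO and 12.5% in placebo-treated KO against WT. The lactate carriers Slc16a1, Slc16a3 and Slc16a7 had no listed site.

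Organic ion carriers of the Slc22a family had a listed site in 2 of 25 members (8%, beside 10.8% of all coding genes) in SAMe-treated KO against WT and in 4 of 25 (16%, beside 12.5%) in placebo-treated KO against WT, in the authors' deposited tables. Slc22a23, whose substrates are not established, had −44.3, −50.2 and −27.0 in SAMe-treated KO and −45.4, −47.8 and −20.4 in placebo-treated KO against WT at chromosome 13 positions 34316519, 34316525 and 34316545 in the authors' deposited table. These sites are inside the gene and within 26 bases of one another, yet the value at 34316545 is the nearest to 0 in both KO groups. Slc22a21, a mouse carnitine carrier, had −28.5 and −27.4 in SAMe-treated KO and −36.9 and −38.0 in placebo-treated KO against WT at chromosome 11 positions 53967564 and 53967572 in the authors' deposited table. Another site, 53967532, was listed in placebo-treated KO against WT alone, at −24.4 in the authors' deposited table.

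Slc22a3 and Slc22a15 had listed sites in placebo-treated KO against WT alone. Slc22a3, an extraneuronal monoamine carrier that lies in the imprinted cluster of Igf2r, had −22.0 at chromosome 17 position 12491715 and −21.4 at 12491838 in the authors' deposited table. Slc22a15, an organic zwitterion carrier, had −29.9 at chromosome 3 position 101877179 in the authors' deposited table. The carnitine carrier Slc22a5 and the organic anion carrier Slc22a7 had no listed site.

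The mostly mitochondrial Slc25a carriers were the largest family. In SAMe-treated KO against WT 4 of 47 members were listed (8.51%, beside 10.8% of all coding genes) in the authors' deposited table. In placebo-treated KO against WT it was 10 of 47 (21.3%, beside 12.5%), again in the authors' deposited table. The difference between these shares was not tested, since both use the same WT mice and no value per animal is given. Slc25a13, the aspartate and glutamate carrier citrin that serves the urea cycle, had −35.5 in SAMe-treated KO and −27.6 in placebo-treated KO against WT at chromosome 6 position 6190103 in the authors' deposited table. Slc25a28, the iron carrier mitoferrin-2, had −27.1 and −33.1 in SAMe-treated KO and −24.1 and −37.6 in placebo-treated KO against WT at chromosome 19 positions 43665690 and 43665702 in the authors' deposited table. Slc25a38, the glycine carrier of haem synthesis, had −27.7 in SAMe-treated KO and −24.7 in placebo-treated KO against WT at chromosome 9 position 120123144 in the authors' deposited table. Slc25a39, which brings glutathione into mitochondria, had −30.9 and −25.6 in SAMe-treated KO and −24.0 and −21.8 in placebo-treated KO against WT at chromosome 11 positions 102402085 and 102402105 in the authors' deposited table. Those 2 sites lie 884 and 864 bases outside the gene and are also near Rundc3a.

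The other 6 mitochondrial carriers were listed in placebo-treated KO against WT alone, with values from −28.8 to −21.3 in the authors' deposited table. Slc25a34 had −28.8 at chromosome 4 position 141624337, which is also near Plekhm2, in the authors' deposited table. Slc25a10, the dicarboxylate carrier that exchanges malate or succinate for phosphate, had −27.9 and −26.8 at chromosome 11 positions 120502523 and 120502538, 1362 and 1377 bases outside the gene, in the authors' deposited table. Slc25a48, a carrier needed for choline uptake into mitochondria, had −24.8 at chromosome 13 position 56462182 in the authors' deposited table. Slc25a21, the oxodicarboxylate carrier of lysine breakdown, had −24.0 at chromosome 12 position 57169476 in the authors' deposited table. Slc25a30 had −23.0 and −21.8 at chromosome 14 positions 75777075 and 75777118, and Slc25a24, which exchanges ATP-magnesium for phosphate, −21.3 at chromosome 3 position 109129134, in the authors' deposited table. All of these values are within 10 points of the limit of 20.

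Several mitochondrial carriers of known importance in liver were not listed. Slc25a26, the mitochondrial SAMe importer, and the folate carrier Slc25a32 had no listed site in any of the 3 tables. Nor did the citrate carrier Slc25a1, the carnitine-acylcarnitine carrier Slc25a20 or the urea cycle ornithine carrier Slc25a15. Being absent from the tables is no evidence of equal methylation at these genes.

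**Figure D2:**
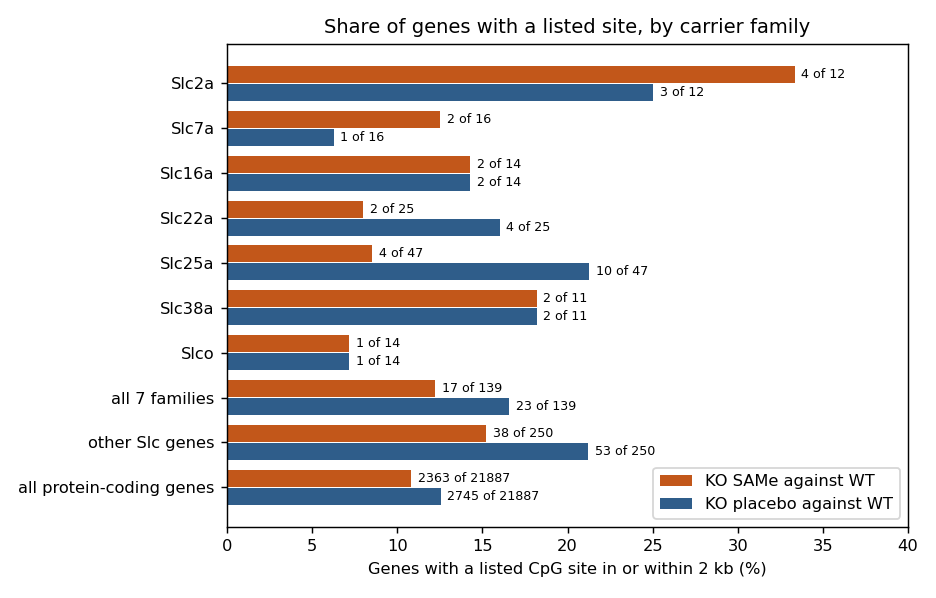
Percentage of genes (x axis) in each carrier family, in all 7, in the other Slc genes and in all coding genes (y axis) with a listed CpG in the gene or within 2 kb; orange bars are SAMe-treated KO against WT, blue bars placebo-treated KO against WT, with the counts beside them. The widest gap between the bars is in Slc25a (4 of 47 and 10 of 47), and family counts rest on 1 to 10 genes.

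The 2 KO groups could be set side by side at 28 positions listed against WT in both tables. SAMe minus placebo, obtained there by subtracting the authors' deposited differences, ran from −10.1 to 10.6 percentage points with a median of −2.77. It was within 5 points at 13 positions and within 10 at 26. The 2 largest were the Slc22a21 site at 53967572 (10.6, less negative under SAMe) and the Slc7a8 site at 54748391 (−10.1, more negative under SAMe). Both were under the limit of 20 that a listing between the KO groups requires, and both comparisons share the WT mice. In Slc2a5 all 3 sites were less negative under SAMe, by 3.20 to 5.32, and in Slc2a9 all 5 were more negative, by −0.461 to −6.30, by the same subtraction of the authors' deposited differences. Positions in 1 table alone numbered 3 for SAMe-treated KO (−29.2 to −23.6) and 14 for placebo-treated KO (−29.9 to −20.7, median −24.2) in the authors' deposited tables, and all 17 lay within 10 points of the limit.

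Over all coding genes the listed share went up with gene length, from 5.58% under 10 kb to 22.3% at 100 kb and over in SAMe-treated KO against WT. Members had a median length of 29.5 kb and all coding genes 17.2 kb. Members from 30 to 100 kb had a listed site in 7 of 51 (13.7%) in SAMe-treated KO against WT, where all coding genes of that length had 13.8%, and in 9 of 51 (17.6%) in placebo-treated KO against WT, where they had 16.3%. Among members under 10 kb it was 3 of 26 (11.5%, beside 5.58%) in SAMe-treated KO and 5 of 26 (19.2%, beside 6.35%) in placebo-treated KO against WT. Those 5 short genes were Slc16a11, Slc16a13, Slc25a10, Slc25a34 and Slc25a39. In the last 4 the sites lay outside the gene within 2 kb, and Slc16a11 and Slc16a13 share theirs. At 10 to 30 kb it was 4 of 46 (8.70%, beside 10.5%) in SAMe-treated KO and 5 of 46 (10.9%, beside 11.6%) in placebo-treated KO against WT. At 100 kb and over it was 3 of 16 (18.8%, beside 22.3%) in SAMe-treated KO and 4 of 16 (25%, beside 27.4%) in placebo-treated KO against WT. At these lengths the shares were near the background.

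**Figure D3:**
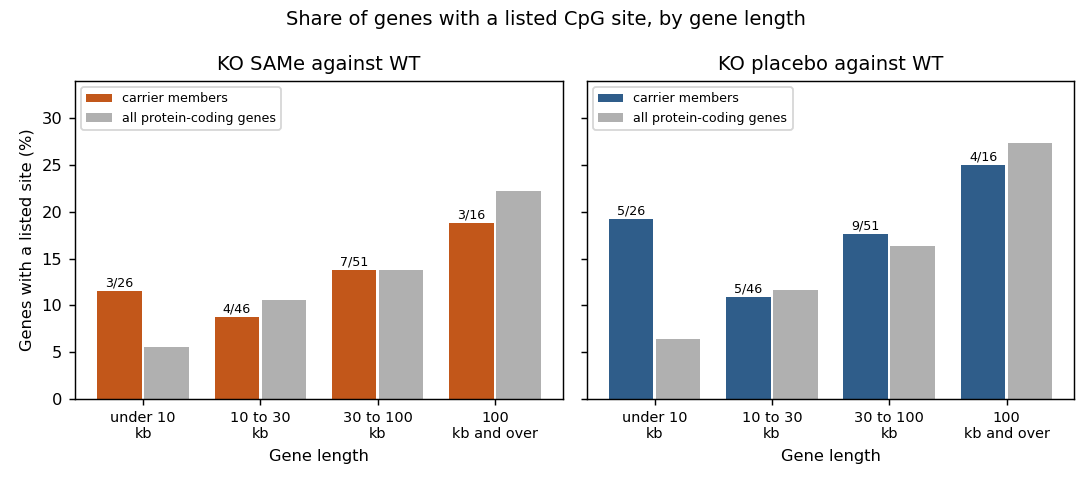
Percentage of genes with a listed CpG (y axis) by gene length (x axis), for carrier members (coloured, counts above the bars) and all coding genes (grey), in SAMe-treated KO against WT (left) and placebo-treated KO against WT (right). Grey bars rise with length, and members stand above them mainly under 10 kb, where 3 of 26 were listed in SAMe-treated KO and 5 of 26 in placebo-treated KO.

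The 45 distinct positions made up 28 regions when those within 1 kb were joined, on 13 chromosomes, and 10 of the 25 members had 1 position. In SAMe-treated KO against WT 31 member sites made up 19 regions, and all 5383 listed sites 3607. In placebo-treated KO against WT 42 member sites made up 26 regions, and all 6721 listed sites 4618. Neighbouring positions of 1 member were within 150 bases in 17 of 21 pairs, and 15 of these were on the same strand.

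Of the 45 positions 39 lay inside a member. Distance from the nearest start in the promoter table could be given for 40 positions and had a median of 10324 bases. By that measure 7 positions were within 2 kb and 20 beyond 10 kb. In Slc2a9 that start lies inside the gene, and the sites at 38502059 to 38502100 are nearer to the upstream end of the gene's listed extent. No position fell in the window from 250 bases before to 50 after a listed start of a member. Over all listed sites such windows of coding genes held 37 of 5383 (0.687%) in SAMe-treated KO against WT and 50 of 6721 (0.744%) in placebo-treated KO against WT, so none among 45 is near what all sites show.

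**Figure D4:**
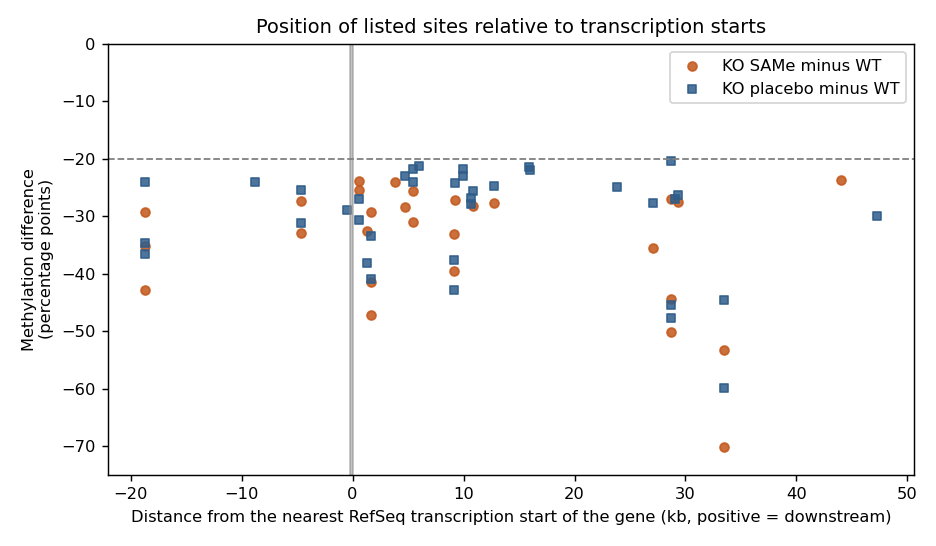
Methylation difference in percentage points (y axis) against distance from the nearest RefSeq start of the gene in kb (x axis, positive is downstream) for the 40 positions with a start in the table; orange circles are SAMe-treated KO minus WT, blue squares placebo-treated KO minus WT, the grey band is the promoter window and the dashed line the limit of 20. No point falls in the band, and the lowest values (Slc7a8) lie about 33 kb downstream.

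Carriers and exporters outside the 7 families, and regulators of carrier genes, were described from lists written with earlier results of these data known. The 250 other Slc genes had a listed site in 38 (15.2%, beside 10.8% of all coding genes) in SAMe-treated KO against WT and 53 (21.2%, beside 12.5%) in placebo-treated KO against WT, with medians over their sites of −29.2 in SAMe-treated KO and −26.9 in placebo-treated KO against WT, all sites lower, in the authors' deposited tables. Between the KO groups 3 were listed in the authors' deposited table, among them Slc5a10 (25.1) and Slc36a2 (−22.4). The metal carriers Slc39a2 and Slc39a11 reached −49.3 and −45.3 in SAMe-treated KO and −42.4 and −46.8 in placebo-treated KO against WT in the authors' deposited table. Slc39a2 lies on chromosome 14, as Mat1a does, and whether linked DNA of the KO allele moves with its values was not tested. Slc48a1, a haem carrier, reached −46.0 in SAMe-treated KO and −42.5 in placebo-treated KO against WT in the authors' deposited table. The lysosomal sialic acid carrier Slc17a5 reached −48.5 in SAMe-treated KO and −34.2 in placebo-treated KO, and the magnesium carrier Slc41a1 −34.8 in SAMe-treated KO and −44.0 in placebo-treated KO, each against WT, in the authors' deposited tables.

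None of the 5 heavy chains and chaperones that carriers of the Slc7a and Slc16a families need (Slc3a1, Slc3a2, Bsg, Emb, Nptn) and none of 4 bile acid carriers had a listed site. Of all coding genes 10.8% were listed in SAMe-treated KO and 12.5% in placebo-treated KO against WT. In lists this short nothing can be read from the absence. Of 10 ABC exporters, Abcc4 (−43.9) and Abcg5 (−21.4) were listed in SAMe-treated KO, and Abcc4 (−60.3 at the lowest of 5 sites) and Abcc3 (−33.1) in placebo-treated KO, each against WT, in the authors' deposited tables. Abcc4 pumps organic anions back to blood and lies on chromosome 14. Of 13 other amino acid carriers the glutamine carrier Slc1a5 had a site at −40.7 in SAMe-treated KO and −28.1 in placebo-treated KO against WT. A second Slc1a5 site was listed in placebo-treated KO against WT alone, at −20.6. The taurine carrier Slc6a6 stood at −25.8 in SAMe-treated KO and −23.8 in placebo-treated KO against WT, all in the authors' deposited tables. Slc1a3, a glutamate carrier, had −25.0 in placebo-treated KO against WT alone in the authors' deposited table. Of 7 folate and choline carriers the reduced folate carrier Slc19a1 was listed, in placebo-treated KO against WT alone (−22.0 and −21.3, the authors' deposited table). The listed share of ABC exporters was 20% in each comparison with WT. That of the other amino acid carriers was 15.4% in SAMe-treated KO and 23.1% in placebo-treated KO. For folate and choline carriers it was 0% and 14.3%. All coding genes had 10.8% and 12.5%, and in lists this short 1 gene moves a share by several points.

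Of 18 regulators, 4 were listed in SAMe-treated KO (22.2%, beside 10.8% of all coding genes) and 6 in placebo-treated KO against WT (33.3%, beside 12.5%), all lower, in the authors' deposited tables. Rxra, the partner of many nuclear receptors, had −36.2 in SAMe-treated KO and −29.1 in placebo-treated KO, and the xenobiotic receptor Nr1i2 −32.2 in SAMe-treated KO and −26.4 in placebo-treated KO, against WT in the authors' deposited tables. Mlxipl, the carbohydrate response factor, had −29.7 and −27.8 in placebo-treated KO against WT alone in the authors' deposited table. None of the lists beyond the other Slc genes held a site between the KO groups, beside 0.658% of all coding genes. In lists this short nothing can be read from that absence.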

How the data were processed

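Liver DNA of 19 mice was profiled by reduced-representation bisulfite sequencing. Per the submitters' processing notes, CASAVA 1.8.2, Trim Galore, Bismark and methylKit are named with the build mm10, and neither their order nor their settings are stated there. What the authors deposited was 3 tables of their own comparisons, with a p-value and a q-value per CpG and a methylation difference, a signed score in percentage points as the authors deposited it. Nothing states the test behind the p-values. At the 26 sites in all tables the differences add up within 1e-08, so the tables share 1 orientation.

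Each site was given to every one of 21887 coding genes it touched, 2 kb at either end included, in RefSeq's GRCm38.p6 table, whose chromosome coordinates are those of mm10 (Python 3.11.15, pandas 2.3.3). Listed sites fell in a RefSeq promoter sequence at 55 places in SAMe-treated KO and 82 in placebo-treated KO against WT, and all of these had CG on the listed strand. Strand and starts came from the promoter table, which held 108 of 139 members. Exons were not distinguished. The assignment was tested on simulated data. No test was run, since the tables hold no value per animal. Replicate numbers were given in accession order and pair no animals.

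Every member with a listed site is named. Some genes of the other lists are not reported here. Members and lists were chosen with earlier results of these data known. Members without a site were named for their known role after their values were seen. Alternatives were the distance, the size of the difference, the q-value and sites near a single gene.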

Additional observations from a re-analysis of the deposited data

How the results depend on the processing

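No paired analysis was possible because the tables hold no value per animal, and for the same reason no animal could be left out. There were 6 alternative settings for each comparison, and all member sites were lower against WT under each. Only the distance of 5 kb could add sites. The other settings keep a part of the reported sites, all of them lower, so the sign could not change there. At a difference of at least 30 percentage points, 11 members with 15 sites were left in SAMe-treated KO against WT, and 9 members with 15 sites (median −38.0) in placebo-treated KO against WT. At 25 or more, placebo-treated KO against WT had 14 members with 25 sites. The background fell as well, to 4.51% of all coding genes in SAMe-treated KO and 4.81% in placebo-treated KO at 30, and to 7.84% in placebo-treated KO at 25. A stricter limit leaves fewer sites by construction. The other 41 of 48 values were within 1.5 times the reported count, or, for medians, within 1 SD over sites (10.4 percentage points in SAMe-treated KO and 8.93 in placebo-treated KO). Some of these 41 could not move and are no sign of stability. They include the counts of 0 between the KO groups. The q-value limit of 0.01 also removed no member site, the largest member q-value being 0.000216 in SAMe-treated KO against WT. With 0 member sites between the KO groups, no median could be given there, and the count was 0 under every setting.

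The limit of 2 kb decided some members. Slc25a10 was the farthest inside it (1377 bases). Within 5 kb, Slc25a34 (2361 bases, −21.8) and Slc25a1 (4368 bases, −27.8) joined in SAMe-treated KO, and Slc25a1 (−20.2) and Slc16a8 (4591 bases, −45.9) in placebo-treated KO against WT, in the authors' deposited tables. Depth is unknown, so what coverage hides cannot be given.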
